A study of Mus musculus with 69 samples.

Results

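The organic ion and ABC drug transporter genes were 67 of the 24411 genes counted in kidney RNA of transgenic mice. They were taken by name alone, as every gene whose symbol starts with Slc22a, Slco, Slc47a, Abcb, Abcc or Abcg and goes on with a number, and Slco2a1, a prostaglandin carrier, was left out with the pseudogenes. The rule itself used no measured value, though it was set with earlier results of these data known. The SLC22 family gave 13 organic anion carriers, 7 organic cation and carnitine carriers and 5 other members, and the SLCO family gave 14 organic anion transporting polypeptides. The Slc47a genes were 2 MATE exporters. The ABC transporters were 5 P-glycoprotein and bile salt pumps and 5 mitochondrial and lysosomal transporters of the ABCB family, 8 multidrug resistance proteins and 2 sulfonylurea receptors of the ABCC family and 6 ABCG genes. Of the 67 genes, 66 held the 2 counts over all libraries that a test required, and 54 had a mean of at least 10 counts. Slco6d1 had 1 count in all and was not tested, and Slc22a16, Slco6c1, Slc22a20, Abcb11 and Slco6b1 never passed 3 counts in a library.

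Kidneys excrete drugs, toxins and waste ions mainly in the proximal tubule, where carriers of the SLC22 family take organic anions and cations up from blood and MATE exporters and ABC pumps release them into the lumen. Other members work the opposite way and recover urate, carnitine and steroid conjugates from the filtrate. In rodents the proximal tubule is known for large differences between the sexes in these genes, and the collecting duct, which the drivers of the pulldowns target, is not regarded as a main site of organic ion secretion.

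All mice carried a floxed-stop uracil phosphoribosyltransferase (UPRT), which lets Cre-expressing cells build 4-thiouracil (4-TU) into new RNA, and all received 430 mg/kg 4-TU intraperitoneally 4 h before the kidneys were taken, controls included. Thio-labelled RNA was biotinylated and pulled down from whole kidneys of 2 genotypes: Hoxb7Cre;UPRTf/+, whose driver acts across the collecting duct, and Atp6b1v1Cre;UPRTf/+ (the label's spelling of the Atp6v1b1 driver), which acts in its intercalated and mixed cells. Pulldowns were made from control mice (10 Hoxb7 and 11 Atp6b1v1 libraries), after ischemia (iAKI, 24 h after 10 min of clamping both renal arteries; 7 Hoxb7 and 6 Atp6b1v1) and after volume depletion (vAKI, 72 h of restricted water and food; 7 and 7), and 21 libraries of total kidney RNA came from controls of both genotypes. Mice were 5.5 months old and of both sexes, except 2 female Hoxb7 and 3 male Atp6b1v1 controls of 3 months and their 5 total RNA libraries. The labels do not say whether a pulldown and a total RNA library came from the same mouse, so p-values measure the spread between these libraries and take them as independent.

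The 69 libraries held 12618062 to 30305464 counts (median 20868430). Levels are CPM, counts scaled to library size with TMM factors over all libraries, and levels of different genes are compared only as CPM per kilobase of exon (FPKM). A differentially expressed gene (DEG) met an adjusted p below 0.05 and a log2 fold change of 1 or more in either direction, by edgeR's quasi-likelihood test over the 21175 genes tested. The labelled segments were checked on marker genes: all 5 principal cell markers were higher in the Hoxb7 pulldown than in total RNA, and 3 of 6 intercalated cell markers were higher in either pulldown, with 2 lower in the Hoxb7 pulldown. The driver's own gene Atp6v1b1 went against the label in the Atp6b1v1 pulldown, at a log2 fold change of -0.51 (adjusted p = 0.00355), as did Aqp6, at -0.69 (adjusted p = 0.00322). Of 10 proximal tubule markers, 8 were DEGs lower in each pulldown, and none was at 0: their summed level was 1865 to 4584 CPM in Hoxb7 pulldowns, 1535 to 4595 CPM in Atp6b1v1 pulldowns and 10754 to 19398 CPM in total RNA. RNA of proximal tubule genes was thus measured in the pulldowns at a lower level, and every value below is of such a mixed pool. In these bulk samples, fewer cells of a type and less RNA per cell cannot be told apart. Pulldowns hold RNA labelled over 4 h, while total RNA holds labelled and older RNA together. Folds between them thus combine cell type with RNA turnover, and the part of turnover was not tested.

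In total kidney RNA (21 libraries) the most abundant transporter per length was Slc22a12, the urate exchanger of the brush border, at 748 ± 384 FPKM (mean ± SD). Among the other genes described here, Slc22a18, an orphan carrier, stood at 363 ± 67.6 FPKM and Slc22a6, the basolateral organic anion exchanger OAT1, at 283 ± 155 FPKM. Slc47a1, the MATE exporter of organic cations, stood at 218 ± 79.2 FPKM, Slc22a7 at 194 ± 57.9 FPKM, Slc22a8, the organic anion carrier OAT3, at 188 ± 46.0 FPKM, and Slc22a2, a basolateral organic cation carrier, at 146 ± 58.0 FPKM. Neighbours in level among these genes overlapped within their SDs, Slc22a12 included, whose wide SD spans libraries of both sexes. Other levels in total RNA were 118 ± 29.02 FPKM for Slco1a6, 109.4 ± 17.8 FPKM for the carnitine carrier Slc22a5, 84.98 ± 89.4 FPKM for the steroid conjugate carrier Slco1a1 and 74.4 ± 31.9 FPKM for Abcc2, the pump of conjugated anions in the brush border.

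The order differed in the pulldowns. In the 10 Hoxb7 control pulldowns the highest level per length was that of Abcc2 at 82.3 ± 53.0 FPKM, followed by Slc22a5 at 72.4 ± 17.4 FPKM, Slc22a12 at 69.9 ± 29.9 FPKM and Slco4a1, an organic anion transporting polypeptide, at 43.1 ± 14.1 FPKM. In the 11 Atp6b1v1 control pulldowns Abcc2 stood at 108.6 ± 50.7 FPKM and Slc22a12 at 104.2 ± 44.0 FPKM, ahead of Slc22a5 at 62.3 ± 12.6 FPKM and Slc47a1 at 51.4 ± 17.5 FPKM. The first 3 of either pulldown overlapped within their SDs. The paper cautions that the labelling may favour RNA rich in uracil. It adds that kinetics likely differ among genes, which may limit comparing them with each other. FPKM corrects for library size and exon length, not for uracil content or turnover. The part of uracil content and turnover in the order of genes within a pulldown, and in its difference from total RNA, was not tested.

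Which transporters were labelled in the collecting duct drivers was asked by comparing each control pulldown with total kidney RNA. Of the 13 tested organic anion carriers, 12 were DEGs lower in both pulldowns, by log2 fold changes from -2.68 (Slc22a13) to -4.89 (Slc22a19), and the 13th was Slc22a20, which had 0 to 2 counts. Of the 66 genes tested, 34 were DEGs in the Hoxb7 pulldown, 28 lower and 6 higher, against 32.5% of all 21175 genes called (17.9% lower, 14.6% higher). In the Atp6b1v1 pulldown 31 were DEGs, 28 lower and 3 higher, against 27.7% of all genes (16.4% lower, 11.3% higher). Their median log2 fold change was -0.29 and -0.33, beside 0.11 for all genes in either pulldown. Both comparisons use the same 21 total RNA libraries.

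Slc22a6 showed the pattern in levels. It ran from 430.2 to 2056 CPM (median 1493) in total RNA, from 51.3 to 229 CPM (median 98.7) in Hoxb7 and from 47.7 to 252 CPM (median 185) in Atp6b1v1 control pulldowns. Every pulldown lay below every total RNA library, and the log2 fold change was -2.96 (SE 0.13) and -2.88 (SE 0.12), with adjusted p = 5.16e-25 and 1.97e-25. Slc22a8 was lower still, with log2 fold changes of -3.66 (SE 0.19) and -3.59 (SE 0.18), and so was Slc22a7, an anion carrier that also moves nucleotides, with -3.88 (SE 0.23) and -3.86 (SE 0.22). The urate exchanger Slc22a12 was at -3.10 (SE 0.16) and -2.84 (SE 0.15), and the brush border exchanger and the basolateral uptake carriers were thus both low.

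Among the cation carriers, Slc22a2 was lower by log2 fold changes of -3.65 (SE 0.10) in Hoxb7 and -3.48 (SE 0.09) in Atp6b1v1 pulldowns. Slc22a4, the ergothioneine carrier, was less depleted at -1.23 (SE 0.16) and -1.20 (SE 0.15), and Slc22a5, which recovers carnitine, passed the test below the fold threshold at -0.57 (SE 0.10) and -0.76 (SE 0.10). Slc22a21, the related carnitine carrier that neighbours Slc22a5, was a DEG higher in both, at 1.22 (SE 0.15) and 1.04 (SE 0.15). Of the 50-base windows of their transcripts, 22% in Slc22a21 and 26.3% in Slc22a5 also occurred in another gene, mostly the other of the pair, so that reads from those stretches cannot be assigned to either. Slc22a3 did not pass in either comparison, at 0.10 (adjusted p = 0.609) and 0.30 (adjusted p = 0.077). Of the other SLC22 members, Slc22a18 and Slc22a17, a lipocalin receptor, were DEGs lower in both (-3.78 and -3.62, -2.54 and -2.58), while the orphans Slc22a15 and Slc22a23 passed the test as higher, at 0.93 and 0.78 and at 0.65 and 0.60.

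The efflux side was split. Slc47a1 was a DEG lower in both pulldowns (-2.19 (SE 0.17) and -2.07 (SE 0.16)), with Abcg2, the breast cancer resistance protein (-2.01 (SE 0.12) and -1.89 (SE 0.11)), and Abcb1b (-1.93 (SE 0.37) and -1.90 (SE 0.37)). Abcb1a, the other P-glycoprotein gene, was a DEG in the Hoxb7 pulldown at -1.56 (SE 0.16) and passed the test alone in the Atp6b1v1 pulldown at -0.98 (SE 0.15). Abcc2 did not share that depletion: it ran from 218 to 1273 CPM (median 616) in total RNA, from 210.2 to 1766 CPM (median 637) in Hoxb7 and from 246 to 1889 CPM (median 784) in Atp6b1v1 pulldowns, and the groups overlapped. Its log2 fold change was 0.31 (adjusted p = 0.261) and 0.54 (adjusted p = 0.0403). The basolateral and ubiquitous pumps Abcc1 (0.93 (SE 0.08) and 0.98 (SE 0.08)) and Abcc5, a nucleotide and heme exporter (0.99 (SE 0.14) and 0.94 (SE 0.14)), passed the test as higher in both. The test was not passed in either pulldown by Abcc3 (0.01 and -0.26) or Abcc4 (0.20 and -0.05). In females alone Abcc3 was a DEG lower (-1.29 and -1.60). In the males compared with females below, its level was instead higher in the pulldowns than in total RNA. Its folds over both sexes thus combine opposite directions. Across the alternative fits they ran from -1.29 to 1.68 in Hoxb7 and from -1.60 to 0.98 in Atp6b1v1 pulldowns. Abcc6 was a DEG lower in both (-1.34 and -1.45). Abcc10 passed only in Atp6b1v1 (-0.25 and -0.29).

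Of the ABCB transporters of mitochondria and lysosomes, Abcb6, a porphyrin transporter (-1.50 (SE 0.07) and -1.56 (SE 0.06)), and Abcb8 (-1.70 (SE 0.05) and -1.64 (SE 0.05)) were DEGs lower in both pulldowns. For Abcb6, 50% of the transcript windows also occurred in the annotated gene Gm29253, which makes its level uncertain. Abcb9 (-0.01 and 0.03) and Abcb10 (-0.01 and 0.00) did not pass. Of the SLCO genes, Slco1a1 (-2.65 (SE 0.45) and -3.00 (SE 0.37)) and Slco1a6 (-2.58 (SE 0.16) and -2.43 (SE 0.16)) were DEGs lower in both. The Slco1a1 values turned with sex: in females alone, where it was near its floor in total RNA, it stood at 0.28 (adjusted p = 0.567) and 0.38 (adjusted p = 0.509), and in males alone at -3.59 and -3.56. Slco3a1 passed the test as lower (-0.56 and -0.65). Slco4c1, the basolateral carrier of digoxin and thyroid hormone, did not pass (0.15 (adjusted p = 0.556) and -0.21 (adjusted p = 0.402)). Slco4a1 ran from 44.3 to 111 CPM (median 62.9) in total RNA, from 126 to 344 CPM (median 183) in Hoxb7 and from 73.3 to 174 CPM (median 85.4) in Atp6b1v1 pulldowns. Its log2 fold change was 1.58 (adjusted p = 2.58e-15) in Hoxb7 and 0.68 (adjusted p = 7.09e-06) in Atp6b1v1 pulldowns, and Abcg1, a cholesterol exporter, was likewise a DEG in Hoxb7 only, at 1.05 (SE 0.09) against 0.55 (SE 0.09). The other DEGs higher than total RNA were low-count genes: Abcg5, Slco5a1 and Slco6b1 in the Hoxb7 pulldown, each with a mean under 10 counts, and Slco6b1 and Slc22a20 in the Atp6b1v1 pulldown, neither of which passed 3 counts in a library.

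**Figure D1:**
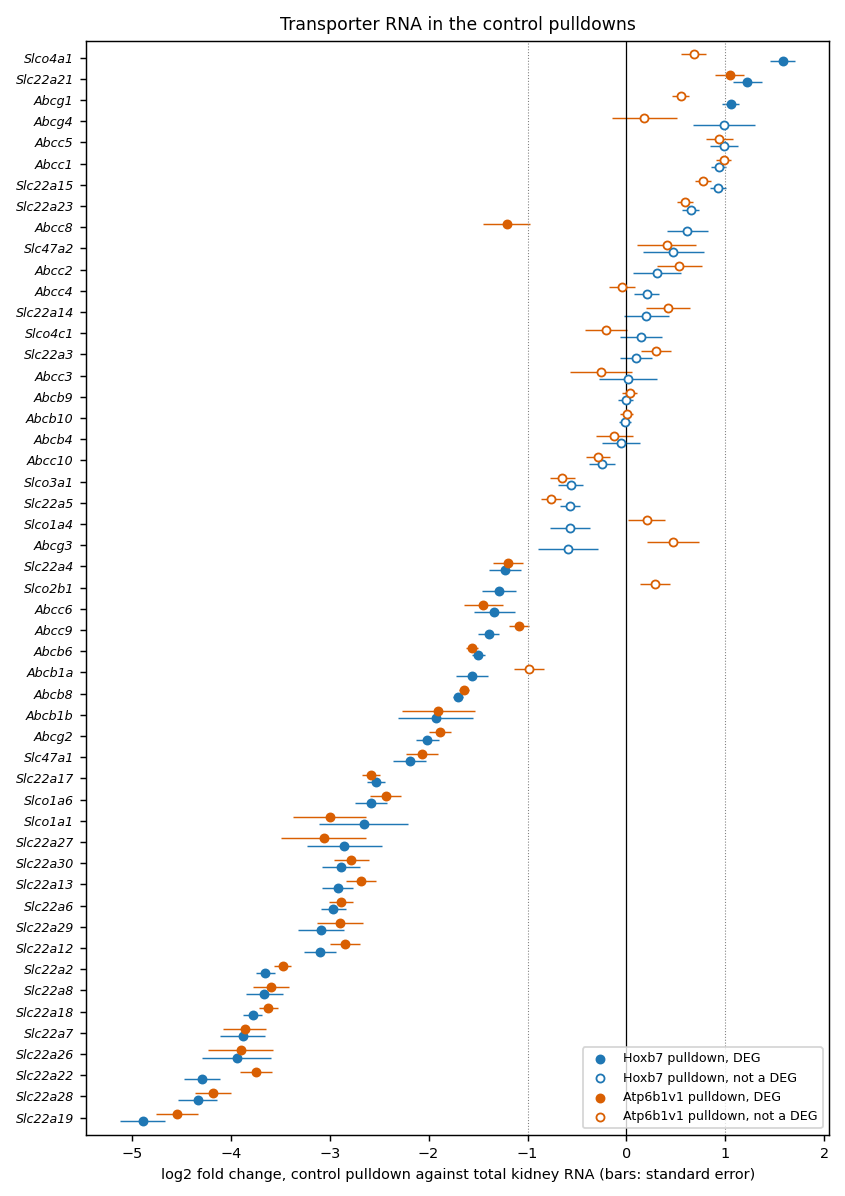
Log2 fold change of each control pulldown against total kidney RNA (horizontal axis, bars are standard errors) for 51 transporters with a mean of at least 10 counts. The organic anion carriers sit at the far left, down to -4.89 for Slc22a19, while Slco4a1 reaches 1.58 in the Hoxb7 pulldown.

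Between the drivers, 4 transporters were DEGs in controls, 3 higher and 1 lower in Atp6b1v1 pulldowns, against 4.11% of all genes (2.58% higher, 1.53% lower). Slco2b1, an organic anion transporting polypeptide of broad tissue distribution, was higher in the Atp6b1v1 pulldown: it ran from 4.22 to 15.4 CPM (median 11.3) in Hoxb7 and from 18.5 to 43.5 CPM (median 30.8) in Atp6b1v1 libraries (log2 fold change = 1.58, SE 0.19, adjusted p = 1.58e-08). Abcc8, the sulfonylurea receptor of endocrine cells, was lower (log2 fold change = -1.82, SE 0.26, adjusted p = 8.91e-07) at low levels, from 0.291 to 1.20 CPM (median 1.02) in Hoxb7 and from 0.0838 to 0.402 CPM (median 0.212) in Atp6b1v1 libraries. Slco1c1, a thyroid hormone carrier with a mean under 10 counts, and Abcg3 were higher, at 1.05 (adjusted p = 0.0224) and 1.07 (adjusted p = 0.0257). The difference itself also passed the test, below the fold threshold, for Slco4a1 (-0.90 (adjusted p = 2.07e-05)) and Abcg1 (-0.50 (adjusted p = 2.72e-04)), both lower in Atp6b1v1 pulldowns, and for Slco1a4 (0.78), Abcb1a (0.58) and Slc22a22 (0.54), all higher there. Macrophage markers moved with the same contrast: Adgre1 was higher in Atp6b1v1 pulldowns (log2 fold change = 1.63, SE 0.20, adjusted p = 4.45e-08), Csf1r passed the test at 0.64, Cd68 stood at 0.12 (adjusted p = 0.87), and the summed level of the 3 markers was 31.8 to 82.6 CPM in Hoxb7 and 56.5 to 105.3 CPM in Atp6b1v1 libraries. None of the 3 was at 0, and their part in the Slco2b1 difference was not tested.

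Males and females were compared in the 16 total RNA libraries of control mice of 5.5 months, 8 of each sex. Of 66 transporters, 20 were DEGs, 12 higher in males and 8 higher in females, against 4.56% of all genes (1.76% higher and 2.81% lower in males). In the 16 control pulldowns of the same age 13 were DEGs, 7 higher in males and 6 higher in females, against 1.79% of all genes (0.963% and 0.822%). By the numbering of the labels, 1 series held females alone among these libraries. It covers replicates 16, 17 and 18 of total RNA, 9 and 10 of Hoxb7 and 13 of Atp6b1v1 pulldowns. Sex and series are thus partly confounded, and the folds given here have no term for the series. Among the cell type markers 2 were DEGs in total RNA, both of the proximal tubule and higher in males. The summed level of the 10 proximal markers was 10754 to 17695 CPM in females and 15060.1 to 19398 CPM in males, a part in the male-higher calls that was not tested.

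Slco1a1, a steroid conjugate carrier of the brush border, gave the widest difference among the members. In total RNA it ran from 0.173 to 1.08 CPM (median 0.422) in females and from 413 to 1383 CPM (median 856) in males, with no overlap (log2 fold change = 10.79, SE 0.31, adjusted p = 5.62e-15). The female libraries held 3 to 18 counts each, so the fitted fold change rests on low female counts. In the control pulldowns it ran from 0.0878 to 0.862 CPM (median 0.487) in females and from 55.8 to 90.1 CPM (median 75.8) in males (log2 fold change = 7.25, SE 0.23, adjusted p = 1.22e-13). Slco1a4, its neighbour on chromosome 6 (chr6:141805440-141856199, minus strand, and Slco1a1 at chr6:141907282-141946962, minus strand, GRCm38), was higher in males by 1.57 (SE 0.30) in total RNA and 2.32 (SE 0.21) in pulldowns. Slco3a1 was also higher in males, by 1.78 (SE 0.12) and 1.09 (SE 0.14), and Slco1a6 passed the test the other way in total RNA, at -0.47.

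The organic anion carriers on chromosome 19 stand side by side and differed in opposite directions. In GRCm38 they run from Slc22a19 (chr19:7673061-7711310, minus strand) through Slc22a26 (chr19:7781041-7802667, minus strand), Slc22a27 (chr19:7864388-7966027, minus strand), Slc22a28 (chr19:8062209-8131982, minus strand), Slc22a29 (chr19:8160165-8218900, minus strand) and Slc22a30 (chr19:8335371-8405111, minus strand) to Slc22a8 (chr19:8591254-8611835, plus strand) and Slc22a6 (chr19:8618039-8628299, plus strand). The roles of Slc22a26 to Slc22a30 are less studied than that of OAT1. Slc22a28 and Slc22a30 were higher in males and Slc22a27 and Slc22a29 higher in females, and the 4 promoters are printed for that reason. Each is the 250 bases before the RefSeq start on the minus strand, 5′ to 3′, on GRCm38.p6, and the gene spans above are those of GENCODE, which reach 6 bases into the Slc22a30 window: chr19:7966028-7966277 for Slc22a27, chr19:8131983-8132232 for Slc22a28, chr19:8218901-8219150 for Slc22a29 and chr19:8405106-8405355 for Slc22a30. Capitals in Slc22a28 and Slc22a30 mark 12 bases each, of which 6 differ at aligned positions and 6 have no partner in the alignment. The unpaired bases stand at the start of the Slc22a28 window and just before the last base of the Slc22a30 window. The alignment could as well have left the last 6 bases of the Slc22a30 window unpaired.
Slc22a27: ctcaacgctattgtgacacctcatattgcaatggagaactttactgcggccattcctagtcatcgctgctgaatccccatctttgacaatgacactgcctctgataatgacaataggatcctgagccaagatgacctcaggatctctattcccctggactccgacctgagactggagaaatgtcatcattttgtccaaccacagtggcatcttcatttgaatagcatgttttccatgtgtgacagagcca
Slc22a28: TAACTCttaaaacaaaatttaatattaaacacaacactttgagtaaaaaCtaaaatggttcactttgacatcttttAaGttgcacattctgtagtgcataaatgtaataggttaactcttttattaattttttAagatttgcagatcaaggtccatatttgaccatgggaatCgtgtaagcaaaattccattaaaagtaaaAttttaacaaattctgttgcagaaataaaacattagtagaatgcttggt
Slc22a29: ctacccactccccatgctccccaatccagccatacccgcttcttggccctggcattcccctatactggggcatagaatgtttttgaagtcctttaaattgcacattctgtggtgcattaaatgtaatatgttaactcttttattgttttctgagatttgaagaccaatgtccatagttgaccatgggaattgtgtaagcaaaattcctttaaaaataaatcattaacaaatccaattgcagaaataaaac
Slc22a30: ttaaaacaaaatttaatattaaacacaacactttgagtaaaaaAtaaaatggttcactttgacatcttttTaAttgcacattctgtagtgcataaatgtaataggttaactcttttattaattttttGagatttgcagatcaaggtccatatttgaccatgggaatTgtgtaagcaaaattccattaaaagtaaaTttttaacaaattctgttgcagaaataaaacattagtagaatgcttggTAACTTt

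The promoters of the 2 male-higher genes shared 238 of 250 bases in a global alignment (95.2%). Slc22a29 shared 172 bases with either of them (68.8%), and Slc22a27 shared 46%, 43.6% and 41.2% with Slc22a28, Slc22a29 and Slc22a30. The STAT-type letters TTCNNNGAA, searched on both strands, were in 9.55% of 27025 RefSeq promoters (250 bases before to 50 after the start) and in 9 of the 53 transporters that had an entry, and the nuclear receptor core AGGTCA was in 18.1% and 10 of the 53. None of the 4 genes printed above was among the 9, and of these 4 only Slc22a27 was among the 10. The likeness reaches into the transcripts, since 53.9% of the 50-base windows of Slc22a28 transcripts also occurred in a transcript of another gene, with 34.2% for Slc22a30, 29.9% for Slc22a27 and 28.7% for Slc22a29. Reads from such stretches cannot be told apart, and the levels of these 4 genes are uncertain to that extent.

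In total RNA Slc22a30 ran from 3.89 to 12.4 CPM (median 10.5) in females and from 188 to 348 CPM (median 250.5) in males (log2 fold change = 4.67, SE 0.19, adjusted p = 1.20e-12). Slc22a28 ran from 7.29 to 25.7 CPM (median 14.2) and from 155 to 244 CPM (median 203) (log2 fold change = 3.79, SE 0.21, adjusted p = 1.09e-10). No male library of either gene overlapped a female one. Slc22a27 ran from 2.14 to 14.1 CPM (median 5.58) in females and from 0.0712 to 0.571 CPM (median 0.279) in males (log2 fold change = -4.32, SE 0.37, adjusted p = 4.54e-08), and Slc22a29 ran from 58.4 to 80.5 CPM (median 66.3) and from 2.79 to 6.09 CPM (median 3.33) (log2 fold change = -4.13, SE 0.15, adjusted p = 2.06e-13). These did not overlap either, with females high. Slc22a19, which lies at the other end of the row, was higher in females by -1.59 (SE 0.15), Slc22a26 stood at -0.13 (adjusted p = 0.779), Slc22a8 passed as higher in females at -0.41, and Slc22a6 was higher in males at 1.69 (SE 0.08). The pulldowns gave 5.39 for Slc22a30, 3.98 for Slc22a28, -1.82 for Slc22a27, -2.45 for Slc22a29, -1.96 for Slc22a19 and 1.40 for Slc22a6, all DEGs in the direction seen in total RNA. Male Slc22a27 lay near the floor of 3 counts. Its male control pulldowns held 2 to 4 counts each, and its lowest male level in total RNA was below 3 counts. The sizes of the Slc22a27 folds are thus not firm.

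**Figure D2:**
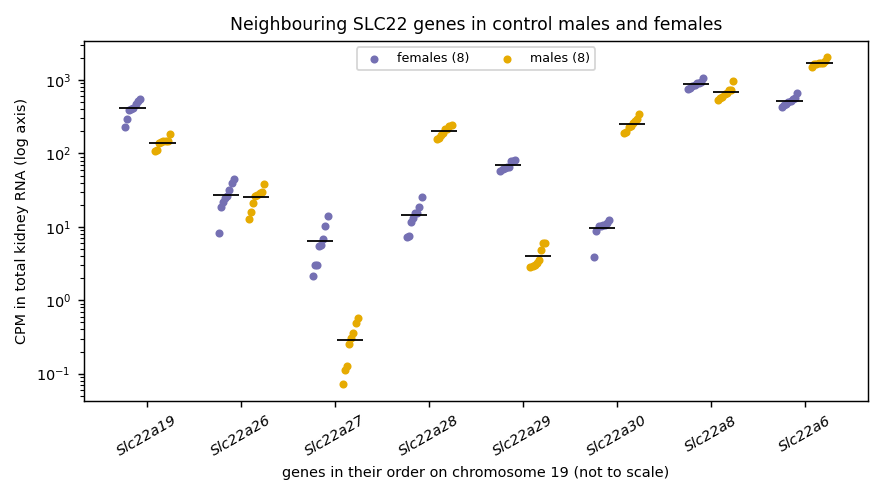
CPM in total kidney RNA (log axis) of 8 SLC22 genes in their order on chromosome 19, with 1 point for each of 8 female and 8 male control libraries and lines at the means. Females lie above males at Slc22a27 and Slc22a29 and below them at Slc22a28 and Slc22a30, between the same neighbours.

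Of the main secretory carriers, Slc22a6 ran from 433 to 668 CPM (median 511) in females and from 1493 to 2056 CPM (median 1697) in males, with no overlap (log2 fold change = 1.69, SE 0.08, adjusted p = 8.44e-12). Slc22a12 was higher in males by 1.29 (SE 0.09), Slc22a2 by 1.03 (SE 0.08), Slc22a22, a prostaglandin carrier, by 1.75 (SE 0.11), Slc47a1 by 1.04 (SE 0.08) and Slc47a2, its paralog, by 1.18 (SE 0.41). In pulldowns Slc22a22 was a DEG at 1.83, Slc22a12 and Slc22a2 passed at 0.88 and 0.86, and the MATE genes did not pass (Slc47a1 0.86 (adjusted p = 0.0954), Slc47a2 1.18 (adjusted p = 0.134)). Slc22a7 passed as higher in females in total RNA at -0.76 and was a DEG in the pulldowns at -1.65 (SE 0.19). Slc22a13, a nicotinate and urate carrier, passed at -0.98 in total RNA, and Slc22a14, whose span overlaps Slc22a13, was a DEG higher in females in both (-1.95 and -1.21).

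The pumps higher in females were Abcc3, Abcc4, Abcb1a and Abcb1b. Abcc3, a basolateral exporter of conjugates, ran from 132 to 293 CPM (median 185) in females and from 4.05 to 6.01 CPM (median 5.18) in males, with no overlap (log2 fold change = -5.31, SE 0.17, adjusted p = 2.73e-14). In pulldowns its ranges were from 32.03 to 123 CPM (median 67.3) and from 10.6 to 20.1 CPM (median 13.1) (log2 fold change = -2.30, SE 0.21, adjusted p = 6.86e-07), so its male level was higher in the pulldowns than in total RNA and its female level lower. Abcc4, a luminal pump of urate and cyclic nucleotides, differed by -1.12 (SE 0.06) in total RNA and -0.32 (adjusted p = 0.26) in pulldowns. The P-glycoprotein genes Abcb1a (-1.32 (SE 0.14)) and Abcb1b (-1.48 (SE 0.46)) were DEGs in total RNA, and Abcb1a passed in the pulldowns at -0.74. Abcg3 was a DEG higher in males (1.57 (SE 0.33)) at a mean of 12.6 counts. Abcc2 (0.82), Abcg2 (0.55), Slc22a18 (0.46), Abcc6 (0.59), Abcb6 (0.24), Abcb8 (0.29) and Abcb10 (0.24) passed as higher in males below the fold threshold, and Abcc1 (-0.75), Slco4a1 (-0.73), Abcg1 (-0.49), Slc22a17 (-0.25) and Slc22a15 (-0.43) as higher in females.

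**Figure D3:**
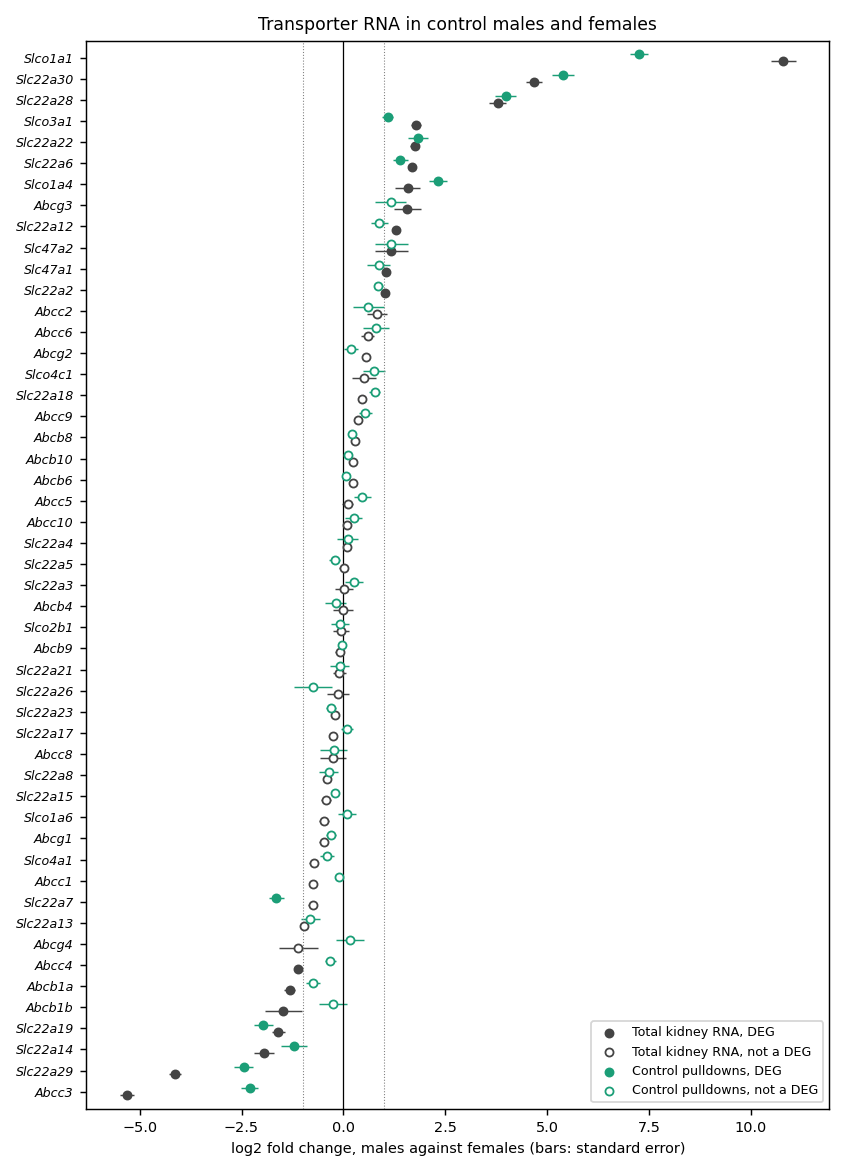
Log2 fold change of males against females (bars are standard errors) for 50 transporters in total kidney RNA and in control pulldowns, 8 libraries of each sex in either. Slco1a1 lies far to the right at 10.79 and 7.25, and Abcc3 lies to the left at -5.31 in total RNA and -2.30 in pulldowns.

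Injury responses were measured in males of 5.5 months, in 1 fit over 22 pulldowns (4 Hoxb7 and 4 Atp6b1v1 controls, 4 and 3 after ischemia, 3 and 4 after volume depletion). After ischemia the Hoxb7 pulldown held 1 transporter DEG, which was higher, against 2.3% of all genes (1.52% higher, 0.784% lower), and the Atp6b1v1 pulldown held 10, all lower, against 2.82% (1.68% lower, 1.14% higher). The members' median log2 fold change was -0.07 in Hoxb7 and -0.22 in Atp6b1v1 pulldowns, beside 0.00 and 0.00 for all genes. The Hoxb7 DEG was Slc22a27, at 4, 2, 3 and 3 counts in controls and 33, 19, 10 and 34 counts after ischemia (log2 fold change = 2.89, SE 0.64, adjusted p = 0.00942), where controls lie at or next to the floor of 3 counts and the size of the fold is not firm.

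The 10 genes that fell in ischemic Atp6b1v1 pulldowns were 4 organic anion carriers (Slc22a30, Slc22a28, Slc22a22 and Slc22a13), Slc22a18, 4 SLCO genes (Slco1a1, Slco1a4, Slco4c1 and Slco1c1) and Abcc9, the sulfonylurea receptor of vascular muscle. Slco1a1 was at 55.8, 82.9, 90.1 and 71.3 CPM in controls and 21.7, 31.5 and 24.7 CPM after ischemia (log2 fold change = -1.54, SE 0.25, adjusted p = 0.00107). Slco1a4 was at 5.03, 10.6, 13.1 and 10.9 CPM and 2.19, 3.33 and 2.22 CPM (log2 fold change = -1.96, SE 0.35, adjusted p = 0.00181). All ischemic libraries lay below all controls for both genes, and both remained DEGs when any library was left out. Slc22a30 was at 35.4, 39.7, 69.4 and 41.1 CPM in controls and 13.5, 19.8 and 6.57 CPM after ischemia (log2 fold change = -1.82, SE 0.41, adjusted p = 0.00922), again without overlap. Slco4c1 fell by log2 fold changes of -1.52 (adjusted p = 0.0335), Slc22a22 by -1.44 (adjusted p = 0.0367), Slc22a13 by -1.37 (adjusted p = 0.0431), Slc22a28 by -1.34 (adjusted p = 0.0183), Slc22a18 by -1.20 (adjusted p = 0.00729) and Abcc9 by -1.12 (adjusted p = 0.00661). Slco1c1 held 7, 11, 9 and 25 counts in controls and 2, 6 and 4 counts after ischemia (-1.63 (adjusted p = 0.0458)), and those ranges did not overlap. Without the ischemic library of replicate 1 the count of 10 became 2, and without replicate 5 it became 6. Slc22a30 kept a log2 fold change of -1.81 without replicate 1 but not its call. Slco1c1 lost its call in 15 of the 22 leave-outs and Slc22a13 in 10.

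Proximal tubule markers moved in the same libraries. Of the 10 markers, 5 were DEGs lower in ischemic Atp6b1v1 pulldowns, led by Slc34a1 (-2.43 (adjusted p = 0.00287)), and their summed level was 2171 to 4109 CPM in controls and 865 to 1219.7 CPM after ischemia, with no marker at 0. In Hoxb7 pulldowns 0 of 10 were DEGs after ischemia, and the sum was 2108 to 3572 CPM and 1421 to 3057 CPM. Other lists moved there: 3 of 5 principal cell markers (Aqp2, Aqp3 and Avpr2), 2 of 6 intercalated cell markers and 2 of 3 fat markers were DEGs lower, and the principal cell sum was 2608 to 3322 CPM in controls and 936 to 1176 CPM after ischemia. In ischemic Atp6b1v1 pulldowns the thick ascending limb marker Umod was higher (1.27) and the endothelial marker Kdr lower (-1.19). The part of these markers in the transporter results was not tested. Several secretory carriers did not pass the test in ischemic Atp6b1v1 pulldowns: Slc22a6 stood at -0.21 (adjusted p = 0.63), Slc22a2 at -0.51 (adjusted p = 0.0868), Slc22a8 at -0.82 (adjusted p = 0.101), Slc22a12 at -0.46 (adjusted p = 0.507) and Slc47a1 at -0.84 (adjusted p = 0.0534). The pumps Abcc2 (-0.71 (adjusted p = 0.322)), Abcg2 (-0.29 (adjusted p = 0.572)) and Abcb1b (0.50 (adjusted p = 0.569)) did not pass either.

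After volume depletion most of the transporters called were lower. In Atp6b1v1 pulldowns 15 of 66 were DEGs, 14 lower and 1 higher, against 5.15% of all genes (1.7% lower, 3.45% higher). In Hoxb7 pulldowns 11 were DEGs, 8 lower and 3 higher, against 16.4% of all genes (6.81% lower, 9.61% higher), a share of the members (16.7%) next to that of all genes. In females alone edgeR called 0 in Hoxb7 pulldowns (5 at an unadjusted p under 0.05) and 8 in Atp6b1v1 pulldowns. All Hoxb7 injury libraries bear 1 numbering series of the labels, with 2 of the 4 male Hoxb7 controls and, among the female ones, replicate 1 alone. With the series as a term of the male fit the Hoxb7 count was 18 after volume depletion and 2 after ischemia. The shares of all genes called in the female fit and the series fit are not set beside these counts. The members' median log2 fold change was -0.32 in Hoxb7 and -0.24 in Atp6b1v1 pulldowns, beside 0.00 and 0.00 for all genes. Slco1a1, Slco1a4, Slc22a2, Slc22a13, Slc22a14, Slc47a2 and Abcc5 were lower in both, 63.6% of the 11 Hoxb7 DEGs and 46.7% of the 15 Atp6b1v1 DEGs.

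Slco1a1 was at 55.8, 80.3, 61.4 and 82.8 CPM in Hoxb7 controls and 15.2, 17.04 and 15.7 CPM after volume depletion (log2 fold change = -2.13, SE 0.26, adjusted p = 2.37e-06), and it went from 55.8, 82.9, 90.1 and 71.3 CPM to 9.37, 7.79, 12.1 and 5.85 CPM in Atp6b1v1 pulldowns (log2 fold change = -3.08, SE 0.25, adjusted p = 1.20e-07). The groups did not overlap in either driver. Slco1a4 was at 4.13, 3.58, 8.10 and 6.56 CPM and 1.91, 1.52 and 1.64 CPM in Hoxb7 pulldowns (log2 fold change = -1.72, SE 0.36, adjusted p = 6.23e-04) and at 5.03, 10.6, 13.1 and 10.9 CPM and 1.55, 1.46, 0.895 and 0.926 CPM in Atp6b1v1 pulldowns (log2 fold change = -2.98, SE 0.33, adjusted p = 1.42e-05). These ranges did not overlap, and all depleted libraries were low. Both genes were among those higher in males in total RNA. Of the 12 male-higher transporters, 4 were DEGs lower after volume depletion in Hoxb7 and 10 in Atp6b1v1 pulldowns, where 15.1% and 23.7% of all 372 male-higher genes were lower. After ischemia the counts were 0 and 5, with 3.23% and 19.6% of all male-higher genes. The classes come from total RNA libraries that are not in the injury fit, though the control mice may be shared.

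Slc22a2 and the MATE gene Slc47a2, which carry organic cations, fell in both drivers. Slc22a2, the basolateral uptake carrier, was at 26.0, 36.4, 32.5 and 41.8 CPM in Hoxb7 controls and 12.5, 14.1 and 16.7 CPM after volume depletion (log2 fold change = -1.24, SE 0.19, adjusted p = 3.24e-05), and at 38.7, 36.7, 42.4 and 33.3 CPM and 12.5, 13.4, 12.98 and 10.7 CPM in Atp6b1v1 pulldowns (log2 fold change = -1.59, SE 0.18, adjusted p = 1.26e-05). No depleted library reached a control. Slc47a2, the paralog of the luminal exporter Slc47a1, was at 2.82, 1.40, 1.73 and 2.76 CPM and 0.403, 0.47 and 0.535 CPM in Hoxb7 (log2 fold change = -2.20, SE 0.54, adjusted p = 0.00257) and at 3.85, 2.66, 1.70 and 0.737 CPM and 0.352, 0.53, 0.256 and 0.174 CPM in Atp6b1v1 pulldowns (log2 fold change = -2.64, SE 0.50, adjusted p = 0.00155), without overlap in either. Slc47a1 fell in Atp6b1v1 pulldowns (log2 fold change = -1.26, SE 0.25, adjusted p = 0.00183) and stood at -0.49 (adjusted p = 0.161) in Hoxb7 pulldowns.

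Of the organic anion carriers, Slc22a6 was at 252, 247, 197 and 191 CPM in Atp6b1v1 controls and 108.5, 80.9, 61.9 and 48.3 CPM after volume depletion, with no overlap (log2 fold change = -1.55, SE 0.22, adjusted p = 9.29e-05). In Hoxb7 pulldowns it was at 165, 229, 152 and 174 CPM and 203, 267 and 240.2 CPM, ranges that overlapped (log2 fold change = 0.40, SE 0.23, adjusted p = 0.18). Slc22a13 fell in both drivers (-1.64 (SE 0.43) and -1.57 (SE 0.38)), and so did Slc22a14 (-2.63 (SE 0.67) and -2.54 (SE 0.59)). Slc22a30 (-1.78 (SE 0.37)), Slc22a22 (-1.34 (SE 0.39)) and Slc22a28 (-1.19 (SE 0.31)) fell in Atp6b1v1 pulldowns, as after ischemia, and stood at -0.89, -0.46 and -0.70 in Hoxb7 pulldowns without passing. Slc22a8 passed the test in Atp6b1v1 pulldowns at -0.86 (SE 0.28), and Slc22a7 (0.10 (adjusted p = 0.939)) and Slc22a12 (-0.44 (adjusted p = 0.439)) did not pass.

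Slc22a26 went the other way in Atp6b1v1 pulldowns. Its counts were 48, 44, 21 and 11 in controls and 844, 75, 69 and 152 after volume depletion, or 2.01, 2.13, 0.89 and 0.368 CPM and 29.7, 2.48, 4.41 and 8.80 CPM (log2 fold change = 3.12, SE 0.59, adjusted p = 0.00148). All 4 depleted libraries lay above all controls, and replicate 1 was far above the other 3. Without it the log2 fold change was 1.98, still a DEG. In Hoxb7 pulldowns the counts were 24, 31, 18 and 16 and 22, 21 and 20, with log2 fold change = -0.21 (adjusted p = 0.881).

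Among the pumps, Abcc5 was at 217, 169, 136 and 175 CPM in Hoxb7 controls and 46.7, 44.4 and 43.01 CPM after volume depletion (log2 fold change = -1.96, SE 0.28, adjusted p = 1.31e-05), and at 186, 136, 137 and 140.4 CPM and 125, 83.7, 40.7 and 44.1 CPM in Atp6b1v1 pulldowns (log2 fold change = -1.01, SE 0.25, adjusted p = 0.00836). All depleted libraries lay below all controls in both drivers, though the Atp6b1v1 call was lost in 3 of 22 leave-outs. Abcc2 was at 1889, 1349, 925 and 1119 CPM in Atp6b1v1 controls and 772, 546, 222 and 191 CPM after volume depletion, below every control (log2 fold change = -1.59, SE 0.40, adjusted p = 0.00981), and stood at -0.56 (adjusted p = 0.334) in Hoxb7 pulldowns. Abcg3 fell in Atp6b1v1 pulldowns (-1.58 (SE 0.42)), from 32, 24, 39 and 27 counts to 13, 8, 7 and 9 counts. In Hoxb7 pulldowns further multidrug resistance proteins passed the test below the fold threshold, namely Abcc3 (-0.77), Abcc4 (-0.60), Abcc10 (-0.77) and Abcc1 (-0.37). Abcb10 (-0.40) also passed as lower and Abcb9, a peptide transporter of lysosomes, as higher (0.52). Neither P-glycoprotein gene passed in either driver (Abcb1a 0.11 and -0.50, Abcb1b -0.18 and -0.91), nor did Abcg2 (-0.31 and -0.53), Abcb4 (0.96 and 0.57), Abcb6 (0.13 and -0.28) or Abcb8 (-0.12 and -0.25).

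The genes that rose in Hoxb7 pulldowns were Slco2b1, Slco1c1 and Slc22a21. Slco2b1 was at 14.4, 11.9, 8.40 and 4.22 CPM in controls and 33.3, 26.6 and 25.2 CPM after volume depletion, without overlap (log2 fold change = 1.55, SE 0.36, adjusted p = 0.00169), and at 0.30 (adjusted p = 0.579) in Atp6b1v1 pulldowns. Slco1c1 held 5, 1, 5 and 3 counts in controls and 24, 25 and 25 counts after volume depletion (2.65 (SE 0.47)). Slc22a21 was at 12.6, 8.28, 12.9 and 18.9 CPM and 29.4, 25.1 and 26.8 CPM, with all depleted libraries high (log2 fold change = 1.04, SE 0.24, adjusted p = 0.00183), and its fold was 0.98 without depleted replicate 4 and 0.87 without control replicate 3, below the DEG threshold. Slco4c1 fell in Hoxb7 pulldowns (log2 fold change = -1.51, SE 0.43, adjusted p = 0.00802), a call lost without depleted replicate 6 (log2 fold change = -1.29), and stood at -0.33 (adjusted p = 0.608) in Atp6b1v1 pulldowns, and Slco4a1 passed as higher in Atp6b1v1 pulldowns (0.94 (adjusted p = 0.00392)).

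Markers of several cell types moved with volume depletion. In Hoxb7 pulldowns 4 of 5 principal cell and 5 of 6 intercalated cell markers were DEGs lower and 0 of 10 proximal markers were DEGs, with proximal sums of 2108 to 3572 CPM in controls and 2700.1 to 3059.6 CPM after depletion. The 3 macrophage markers summed to 38.96 to 42.8 CPM and 31.7 to 38.9 CPM, with Cd68 at 2.06 (adjusted p = 5.63e-06) and Adgre1 at -1.19 (adjusted p = 0.0362). In Atp6b1v1 pulldowns 3 of 6 intercalated markers and 1 of 10 proximal markers (Slc7a13, -1.42) were DEGs lower, and the proximal sum was 2171 to 4109 CPM in controls and 1422 to 4559 CPM after depletion. In the thick ascending limb list 2 of 3 markers were DEGs lower in Hoxb7 pulldowns, where the sum was 1335 to 2328 CPM in controls and 772 to 857 CPM after depletion. The distal convoluted tubule sum was lower without overlap in both drivers, at 216 to 424 CPM against 128 to 173 CPM in Hoxb7 (1 of 2 markers a DEG) and at 287 to 604 CPM against 106.05 to 163 CPM in Atp6b1v1 pulldowns (2 of 2). The fat sum was also lower without overlap in both, with Ucp1 a DEG at -2.73 and -2.47. No marker of these lists was at 0 in every library of a group. The part of these movements in the transporter results was not tested.

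**Figure D4:**
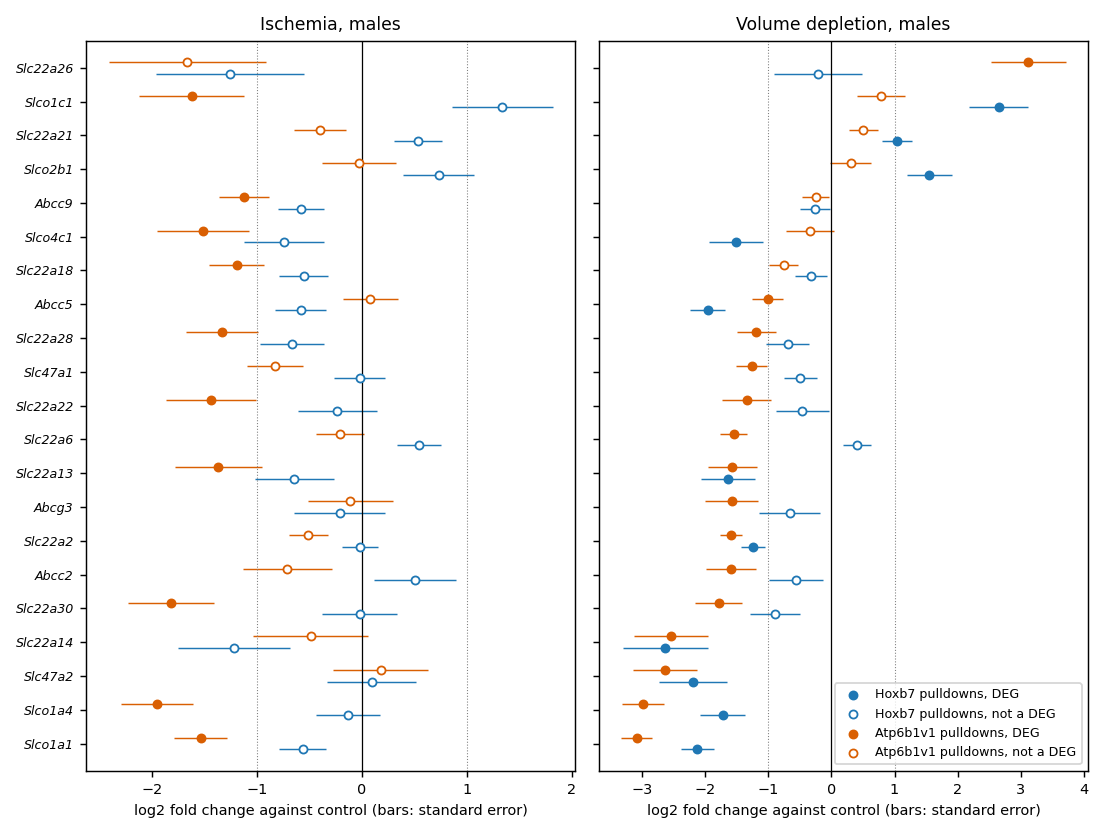
Log2 fold change against control after ischemia and after volume depletion in male pulldowns of each driver (bars are standard errors, filled points are DEGs) for the 21 transporters with a DEG call in any panel and a mean of at least 10 counts, which leaves out Slc22a27. After volume depletion both drivers have filled points on the left for Slco1a1, at -2.13 and -3.08, while after ischemia the filled points shown are of the Atp6b1v1 driver.

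**Figure D5:**
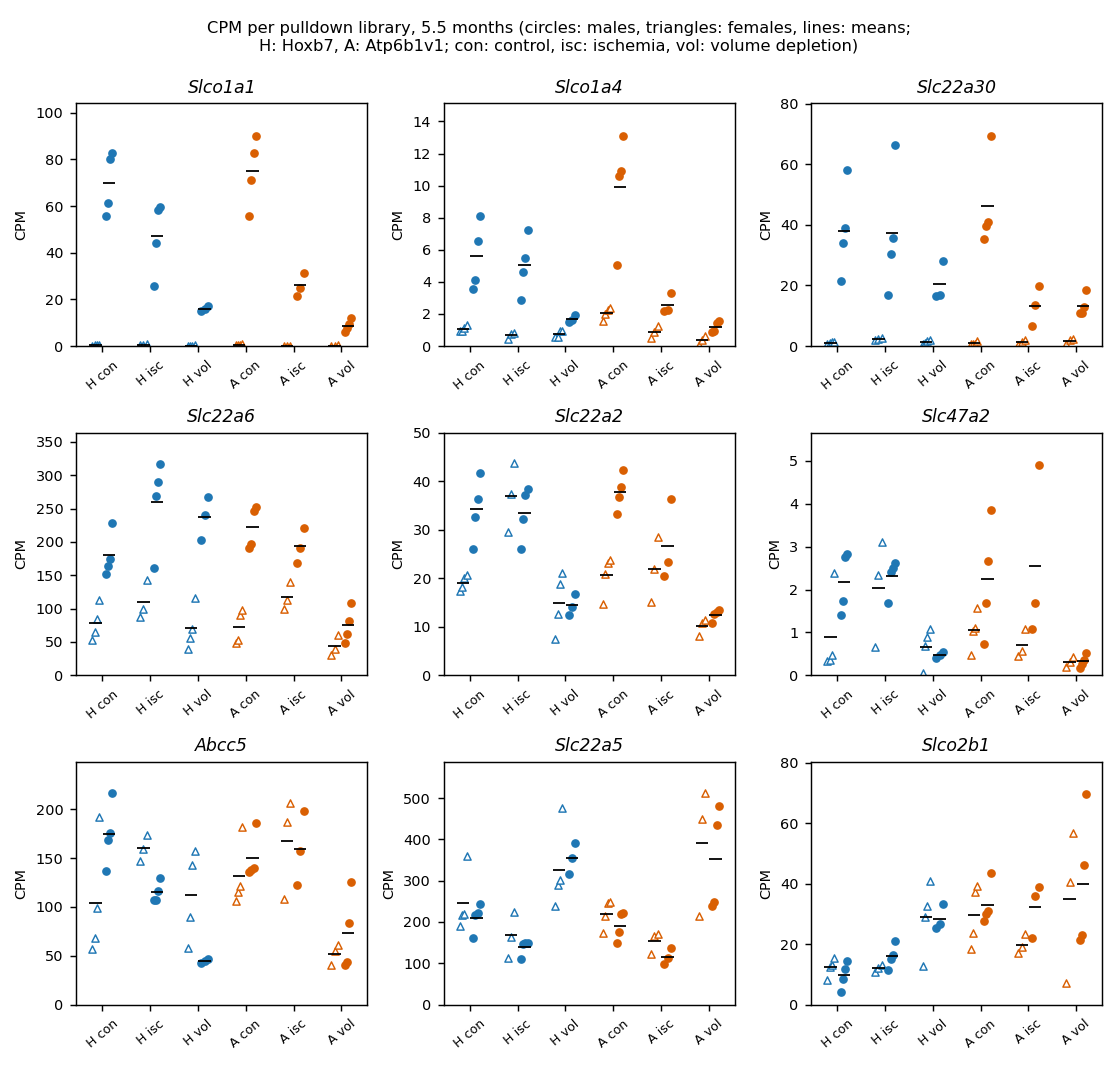
CPM in each pulldown library of 5.5 months for 9 transporters (circles for males, triangles for females, lines for group means). Male Slco1a1 lies at 55.8 to 90.1 CPM in Atp6b1v1 controls and at 5.85 to 12.1 CPM after volume depletion, and the 7 depleted male Slc22a5 libraries lie above the 7 ischemic ones.

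Set directly against each other in males, volume depletion and ischemia differed at 10 transporters in Hoxb7 pulldowns (3 higher after volume depletion, 7 lower), against 14.7% of all genes (8.15% and 6.55%), and at 16 in Atp6b1v1 pulldowns (6 higher, 10 lower), against 11.6% of all genes (7.16% and 4.39%). Slc22a5 separated the injuries in both. It was at 222, 243, 160.0 and 217 CPM in Hoxb7 controls, 148, 110.0, 146 and 149 CPM after ischemia and 392, 355 and 317 CPM after volume depletion. In Atp6b1v1 pulldowns it was at 221, 218, 149 and 176 CPM, 137, 113 and 97.2 CPM and 481, 436, 249 and 239 CPM. Depleted libraries lay above control and ischemic libraries in both drivers, and ischemic libraries lay below controls. Volume depletion against ischemia gave log2 fold changes of 1.35 (SE 0.21) with adjusted p = 4.80e-05 in Hoxb7 and 1.63 (SE 0.23) with adjusted p = 2.11e-05 in Atp6b1v1 pulldowns. Against controls it passed the test below the fold threshold after volume depletion (0.76 (adjusted p = 0.00752) and 0.89 (adjusted p = 0.00479)) and after ischemia in Atp6b1v1 pulldowns (-0.73 (adjusted p = 0.0384)), and stood at -0.59 (adjusted p = 0.0803) in ischemic Hoxb7 pulldowns.

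Slco1a1 (-1.56 and -1.54), Slco1a4 (-1.59 and -1.02), Slc22a2 (-1.22 and -1.07), Slc47a2 (-2.29 and -2.82) and Abcc5 (-1.37 and -1.09) were lower after volume depletion than after ischemia in both drivers. In Atp6b1v1 pulldowns alone Slc22a6 (-1.34), Slc22a14 (-2.05), Abcb1b (-1.41) and Abcg3 (-1.47) were DEGs lower, and Slc22a19 (1.39), Slc22a7 (1.29), Slco4c1 (1.18) and Slc22a26 (4.79) DEGs higher, after volume depletion. Slco1c1 was higher in both (1.31 and 2.41). Abcb4, a phospholipid transporter, was higher in Hoxb7 pulldowns at 1.17 (SE 0.42), with a mean of 16.8 counts, and Slc22a27 lower there at -3.33 (SE 0.74). The low-count Abcb5 in Hoxb7 and Abcc12 in Atp6b1v1 pulldowns, at no more than 6 counts in any of these libraries, made up the counts. Of the 10 proximal markers, 5 were DEGs higher after volume depletion than after ischemia in Atp6b1v1 pulldowns, and their part in the genes higher there was not tested. In that comparison Slco4c1 lost its call in 7 of 22 leave-outs, Abcb1b in 4, Slc22a7, Slco1a4 and Abcc5 in 3 each, Abcg3 in 2 and Slc22a19, Slc22a14 and Slc22a2 in 1 each, the first of these without ischemic replicate 1 and the others without ischemic replicate 4. In Hoxb7 pulldowns Abcb4 lost its call in 5 and Slco1c1 in 2.

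Whether the drivers responded differently was tested by the interaction of driver and injury. For ischemia 5 transporters were DEGs, all with the more negative response in Atp6b1v1 pulldowns, against 3.49% of all genes (1.88% lower, 1.6% higher). They were Slco1a4 (log2 fold change = -1.82, SE 0.45, adjusted p = 0.0174), Slc22a30 (log2 fold change = -1.80, SE 0.54, adjusted p = 0.0421), Slc22a8 (log2 fold change = -1.42, SE 0.42, adjusted p = 0.0398) and the low-count Slco1c1 (-2.97) and Slc22a27 (-4.62). Slco1a4 was at 4.13, 3.58, 8.10 and 6.56 CPM in Hoxb7 controls and 5.49, 2.88, 7.26 and 4.59 CPM after ischemia, which overlapped, beside the lower ischemic Atp6b1v1 values given above. Slc22a8 was at 0.60 in Hoxb7 and -0.82 in Atp6b1v1 pulldowns, neither of which passed on its own. Abcg1 passed below the fold threshold (0.89 (adjusted p = 0.0415)). The count of 5 became 0 without the ischemic Atp6b1v1 library of replicate 1, 2 without the ischemic Hoxb7 library of replicate 7 or the Atp6b1v1 control of replicate 9, and 3 in several other leave-outs, and Slc22a30 and Slc22a8 lost their calls in 12 and 10 of the 22. For volume depletion 2 were DEGs, against 2.93% of all genes (1.34% higher, 1.6% lower): Slc22a6 (log2 fold change = -1.95, SE 0.31, adjusted p = 0.00128), with the more negative response in Atp6b1v1 pulldowns, and Slc22a26 (log2 fold change = 3.33, SE 0.91, adjusted p = 0.0382), whose call was lost in 8 of 22 leave-outs. With the numbering series as a term these counts were 8 and 4, given without the share of all genes called in that fit.

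Females were compared with males in a joint fit over the 43 pulldowns of 5.5 months, a comparison added after the data were seen. In Hoxb7 pulldowns 6 transporters differed between the sexes in their response to ischemia, against 6.98% of all genes, and 4 in their response to volume depletion, against 10.8%. Slc22a28 and Slc22a22, both higher in control males, rose in ischemic females (log2 fold changes of 1.86 and 2.40), beside -0.67 and -0.25 in males, and the difference of males minus females was -2.53 (SE 0.69, adjusted p = 0.0187) and -2.65 (SE 0.72, adjusted p = 0.0185). Female Slc22a22 was at 3.04, 1.23, 1.89 and 1.62 CPM in controls and 7.90, 7.99 and 15.1 CPM after ischemia. The ischemic females were all higher. Female Slc22a28 was at 0.698, 0.747, 0.571 and 0.309 CPM and 2.23, 0.571 and 3.57 CPM, which overlapped. Marker sums were higher in the same female libraries, for the proximal tubule 1865 to 4584 CPM in controls and 3329 to 5603 CPM, which overlapped, and without overlap for the thick ascending limb (949 to 2328 CPM against 3038 to 4135 CPM) and the distal convoluted tubule (104.3 to 567 CPM against 592 to 679 CPM), and their part in these results was not tested. Slc22a21 was lower in ischemic females, at -1.42 beside 0.52 in males, with a difference of 1.94 (SE 0.44, adjusted p = 0.00846). Female Slc22a21 was at 11.0, 24.7, 20.7 and 21.9 CPM in control replicates 1, 6, 9 and 10 and at 5.94 to 8.26 CPM after ischemia. Of these controls only replicate 1 bears the numbering series of the injury libraries. Series and injury thus cannot be fully told apart in female Hoxb7 pulldowns, and the series was not a term of the joint fit. The other differences were Slc22a14 at -2.57 (SE 0.73, adjusted p = 0.0226) and the low-count Slco1c1 and Slc22a27 at 3.24 and 3.49.

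For volume depletion in Hoxb7 pulldowns Abcc5 fell in males (-1.96) and stood at 0.10 in females, a difference of -2.06 (SE 0.46, adjusted p = 0.00432). Female Abcc5 was at 192, 57.1, 67.996 and 98.5 CPM in controls and 157, 89.3, 143 and 57.6 CPM after depletion, a wider and overlapping spread. The control at 192 CPM is replicate 1, the only female control in the numbering series of the depleted libraries, and all depleted females lay below it. Series and depletion thus cannot be fully told apart in the female values. Slc22a21 differed by 1.30 (SE 0.43, adjusted p = 0.0353) and Slco1c1 by 2.75 (SE 0.68, adjusted p = 0.00786). These counts moved when 1 library was left out. For ischemia the 6 became 1 without the ischemic replicate 3 and 11 without control replicate 1, and for volume depletion the 4 became 9 without depleted replicate 5 or control replicate 1 and 2 without depleted replicates 1 or 7 or control replicates 3 or 6.

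In Atp6b1v1 pulldowns edgeR called 0 transporters for the difference between the sexes in either injury and 0 of all genes. At an unadjusted p under 0.05 there were 6 for ischemia and 8 for volume depletion, and DESeq2 called 0 and 1. After volume depletion the females of the joint fit had 11 transporter DEGs, a count given without the share of all genes called. Among them were, as lower, Slco1a4 (-2.43), Slc22a14 (-2.80), Abcc5 (-1.33), Slc22a13 (-1.22), Slc22a2 (-1.02) and Slco1a6 (-1.01) and, as higher, Slc22a21 (1.49). Female Slc22a2 was at 20.96, 23.2, 14.7 and 23.8 CPM in controls and 11.4, 10.8 and 8.11 CPM after depletion, without overlap, and female Abcc5 at 115, 181, 106.2 and 122 CPM and 60.8, 54.4 and 40.2 CPM. Female Slco1a1 lay at or near the floor of 3 counts in depleted libraries (0, 1 and 4 counts), so no fold is given for it.

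Partner genes of the carriers were counted from lists of their known scaffolds, exchange partners and regulators. Of 12 scaffold and exchange genes, 7 were DEGs lower than total RNA in the Hoxb7 and 8 in the Atp6b1v1 pulldown, where 17.9% and 16.4% of all genes were lower. After volume depletion 4 were lower in Atp6b1v1 pulldowns, against 1.7% of all genes: Slc13a3 (-1.86 (adjusted p = 2.41e-05)), which feeds dicarboxylates to OAT1 and OAT3, Slc16a9 (-1.55 (adjusted p = 0.00162)), Slc17a3 (-1.46 (adjusted p = 0.00293)) and the scaffold Pdzk1 (-1.08 (adjusted p = 0.0029)), and 1, Slc17a3, was lower in Hoxb7 pulldowns (-1.02 (adjusted p = 0.0188)), against 6.81%. After ischemia 4 were lower in Atp6b1v1 pulldowns, against 1.68% of all genes, namely Slc5a12 (-2.37), Slc16a9 (-1.34), Slc5a8 (-1.31) and Slc17a3 (-1.29), and 0 in Hoxb7 pulldowns, where 1 passed the test without the fold threshold.

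Of 18 regulators, Hnf4a, a nuclear receptor of the proximal tubule (-1.39 (adjusted p = 0.0208)), and Esr1, the estrogen receptor (-1.26 (adjusted p = 0.00107)), fell in ischemic Atp6b1v1 pulldowns, 2 of 18 against 1.68% of all genes. After volume depletion Cebpb, a stress and acute phase factor, rose in both drivers (2.89 (SE 0.49) in Hoxb7, 2.06 (SE 0.46) in Atp6b1v1), and in Hoxb7 pulldowns the repressor Bcl6 (1.89 (SE 0.33)) and the liver X receptor Nr1h2 (1.07 (SE 0.17)) rose, which makes 3 of 18 in Hoxb7 and 1 of 18 in Atp6b1v1 pulldowns, against 9.61% and 3.45% of all genes. Between the sexes the prolactin receptor Prlr was higher in females in total RNA (-5.05 (SE 0.35)) and in pulldowns (-3.14 (SE 0.36)), and none of the other 17 was a DEG in either.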

How the data were processed

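The deposited table held raw counts per gene for all 69 libraries, made by the authors. The submitters' processing notes name CASAVA 1.8.2, Trimmomatic 0.36, STAR 2.5.3a, HTSeq 0.6.1p2 and build mm10. HTSeq ran at its default settings per the study's methods, which count by strand and leave out reads that map to several places, and the annotation was not given in the sources used here. No gene-less rows and 0 columns of other samples were found.

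Genes were tested where the 69 libraries together held 2 counts or more, with edgeR 4.0.16 (R 4.3.3), using TMM factors, glmQLFit and glmQLFTest, with Benjamini-Hochberg adjustment over 21175 genes. The DEG threshold was an adjusted p below 0.05 with a log2 fold change of 1 or more in either direction. Controls were fitted with sex as covariate (42 libraries), injuries in males alone (22), and the sexes with driver as covariate (16 each). Standard errors are the log2 fold change divided by the square root of the F statistic. FPKM used union exons of GENCODE vM21 (GRCm38). Libraries held 12618062 to 30305464 counts, and 3 counts were taken as the floor, which covers counting error only.

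Equal replicate numbers did not pair the libraries: the mean correlation of their deviations was -0.0023 over 20 pairs of the injury fit and 0.0347 over 26 pairs of the control fit. Simulated counts were run for Hoxb7 pulldowns against total RNA, for volume depletion in male Hoxb7 pulldowns and for the sexes in total RNA. They were also run for the sexes' responses to volume depletion in Hoxb7 pulldowns. Alternatives were DESeq2 1.42.0, other filters, the groups compared alone, females, both sexes, the numbering series, a replicate block and leaving out each library. The sexes' responses to injury were compared after the data were seen. The members, lists and tests were chosen with earlier results of these data known. Genes named were those of main substrate classes and, in each comparison, up to 8 DEGs in each direction with a mean of at least 10 counts. Some genes in the counts are not reported here by name or drawn. Figures used Python 3.11.15 and matplotlib 3.10.9.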

Additional observations from a re-analysis of the deposited data

Results flagged for a closer look

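In groups of 4 to 10 libraries, 8 of the 78 groups examined for the named transporters had 1 library apart from the rest by Dixon's test at the 95% level, which chance gives in about 1 in 20 groups. Highest in their groups were female replicate 12 of total RNA for Slco1a1 (1.08 CPM), male Atp6b1v1 control replicate 10 for Slc22a30 (69.4 CPM), male Atp6b1v1 control replicate 6 for Abcc5 (186 CPM), male ischemic Hoxb7 replicate 6 for Slc22a21 (21.7 CPM) and male volume-depleted Atp6b1v1 replicate 2 for Slc22a14 (0.563 CPM). Lowest were female replicate 6 of total RNA for Slc22a30 (3.89 CPM), male ischemic Hoxb7 replicate 5 for Slc22a5 (110.0 CPM) and male volume-depleted Atp6b1v1 replicate 1 for Slc22a21 (16.9 CPM).

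The response to ischemia differed between the drivers by the interaction term, as Atp6b1v1 minus Hoxb7 on the log2 scale, at Slc22a27 (-4.62), Slco1c1 (-2.97), Slco1a4 (-1.82), Slc22a30 (-1.80) and Slc22a8 (-1.42). The response to volume depletion differed at Slc22a26 (3.33) and Slc22a6 (-1.95).

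Between the sexes, as males minus females in Hoxb7 pulldowns, the response to ischemia differed at Slc22a21 (1.94), Slc22a22 (-2.65), Slc22a27 (3.49), Slc22a28 (-2.53), Slco1c1 (3.24) and Slc22a14 (-2.57). The response to volume depletion differed at Slc22a21 (1.30), Abcc5 (-2.06) and Slco1c1 (2.75). Slc22a27 and Slco1c1 held few counts in these libraries.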

How the results depend on the processing

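Of 147 results for a named transporter called as DEG, 78 kept their direction and call in every alternative run, 67 lost the call in at least 1 and 11 reversed in at least 1. Of 403 not called, 91 were called in some alternative, 2 of them reversed. All reversals came from fitting females only, where Slc22a21 stood at -1.39 after ischemia in Hoxb7 pulldowns, Slc22a21 at -0.25, Abcc5 at 0.10 and Slco1c1 at -0.0898 after volume depletion there, Slc22a30 at 0.43, Slc22a22 at 0.91 and Slc22a28 at 0.18 after ischemia in Atp6b1v1 pulldowns, and Slc22a30 at 0.94 after volume depletion there. In females Slco1a4 stood at 0.14 for volume depletion against ischemia in Hoxb7 pulldowns, Slco1c1 at 0.78 for the drivers' difference in ischemia, and, against total RNA, Slco1a1 at 0.28 (Hoxb7) and 0.38 (Atp6b1v1) and Abcc3 at -1.29 (Hoxb7).

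The count of transporter DEGs moved by over 1.5 times in these alternatives, and the cause was not tested. These counts are of transporters alone, without the share of all genes called in each alternative. With no fold threshold it was 9 between the drivers in controls (4 with it), 20 after volume depletion in Hoxb7 pulldowns (11) and 39 between the sexes in total RNA (20). With females only it was 2 and 0 after ischemia and volume depletion in Hoxb7 pulldowns (1 and 11 in males), 1 and 8 in Atp6b1v1 pulldowns (10 and 15), 3 for volume depletion against ischemia in Hoxb7 pulldowns (10), and 0 and 0 for the drivers' differences (5 and 2). At an unadjusted p under 0.05 the 3 counts of 0 were 5, 11 and 12. With both sexes it was 5 after volume depletion in Hoxb7 pulldowns and 3 for the drivers' difference in ischemia, for which DESeq2 and a fit of 25 males also gave 3. With the numbering series as a term it was 2 and 18 after ischemia and volume depletion in Hoxb7 pulldowns, and 8 and 4 for the drivers' differences. With only the groups compared it was 2 after ischemia in Hoxb7 pulldowns. DESeq2 called 1 for the sexes' responses to volume depletion in Atp6b1v1 pulldowns (0 by edgeR).

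With the replicate number as a block it was 2 after ischemia in Hoxb7 pulldowns, 0 after ischemia in Atp6b1v1 pulldowns (19 at an unadjusted p under 0.05), and 0 (15 unadjusted) and 1 for the drivers' differences in ischemia and volume depletion. The numbers are shared by name alone. Leaving out 1 library at a time gave 1 to 2 and 10 to 13 after ischemia and volume depletion in Hoxb7 pulldowns, 2 to 10 and 12 to 16 in Atp6b1v1 pulldowns, 8 to 11 and 11 to 17 for volume depletion against ischemia, 0 to 6 and 1 to 3 for the drivers' differences, and 1 to 11 and 2 to 9 for the sexes' responses to ischemia and volume depletion in Hoxb7 pulldowns. The last were not run in Atp6b1v1 pulldowns. Groups held 3 or 4 libraries, and 13 transporters had a mean under 10 counts, where depth limits what could be detected.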
